A study of Coprinopsis cinerea AmutBmut pab1-1 with 201 samples.

Results

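Young vegetative mycelium of the mushroom Coprinopsis cinerea was followed in the dark at 12, 36 and 60 h, the 3 earliest ages of a dark course that ran on to 132 h. The members were the 9 libraries labelled with these ages, 3 for each age, of 201 libraries in all, and the steps compared were 36 h against 12 h and 60 h against 36 h. Every library came from the strain AmutBmut pab1-1, a homokaryon whose mutated A and B mating type factors allow fruiting without a mate and which needs para-aminobenzoic acid. The 3 groups were untreated vegetative mycelium that differed in age alone, as far as the labels say, and the labels of this course name no medium or temperature. The whole series holds 67 groups of 3 libraries, from spores and stressed mycelium to hyphal knots and primordia. The labels leave unsaid whether replicates are separate cultures, so a p-value here speaks for the spread among the sampled libraries, part or all of which may be technical.

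A colony of this fungus grows by the extension and branching of hyphal tips. Older mycelium holds hyphae attached to the substrate, which take up nutrients, and aerial hyphae, which rise from the surface and can carry asexual spores called oidia. After enough growth in the dark, light induces hyphal knots, from which fruiting bodies develop. The 3 young ages precede the light treatment of this study.

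RNA was read from the 3′ end of transcripts, and levels are given as CPM, a library's counts scaled to a common total. CPM from such reads is not divided by transcript length. The 9 libraries held 9194589 to 12665541 counts, close to the series median of 9984538. Of 13617 genes, 10928 passed the filter on low counts and were tested. A gene was called higher or lower at a Benjamini-Hochberg adjusted p under 0.05 in edgeR's quasi-likelihood test together with a fold of 2 or more. Across the tested genes, libraries of 1 age correlated at 0.972 to 0.987 and libraries of neighbouring ages at 0.923 to 0.963 (Pearson's r over genes, a description). The gene identifiers carry no names or products in the deposited files, and 0 of them matched the reference table of 13657 genes. Marker genes of vegetative mycelium could therefore not be looked up, and groups of genes are described by sets taken from other samples of the series.

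From 12 to 36 h, 557 genes were higher and 853 were lower, which is 5.1% and 7.81% of the tested genes. A fold of 4 or more was reached by 114 of the higher and 198 of the lower genes. From 36 to 60 h, 628 genes were higher (5.75%) and 423 were lower (3.87%), with folds of 4 or more for 94 and 99 genes. The median log2 fold change of all tested genes was -0.04 in the first step and 0.03 in the second. Between the ends of the interval, 673 genes were higher at 60 than at 12 h (6.16%) and 829 were lower (7.59%).

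**Figure D1:**
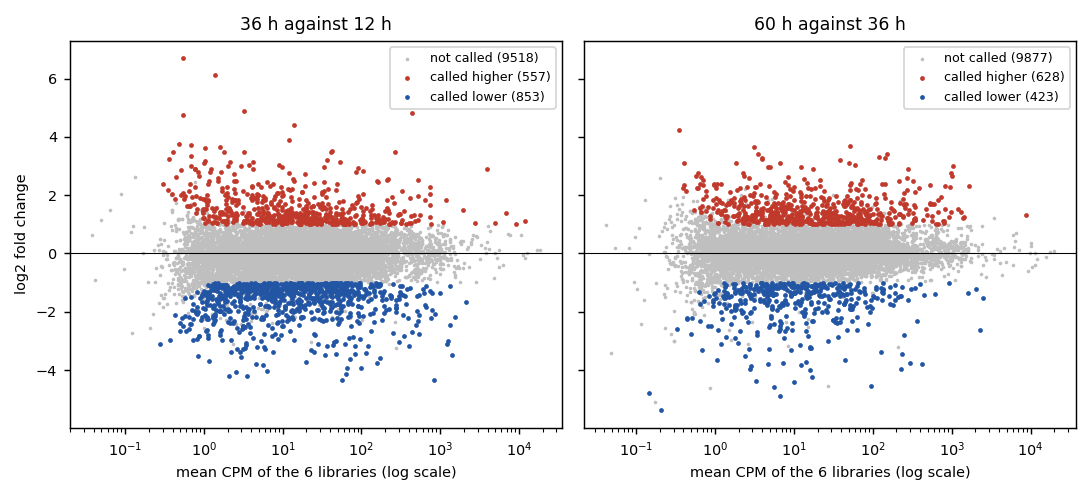
Log2 fold change (vertical axis) against the mean CPM of the 6 libraries compared (horizontal axis, log scale) for the 10928 tested genes in each step. Called genes, 557 higher and 853 lower in the left panel and 628 higher and 423 lower in the right panel, lie at all levels from below 1 CPM to above 1000 CPM.

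Of the named genes that were higher at 36 than at 12 h, the first had the largest fold. CopciAB_546727.T0 (scaffold 5, 3420377 to 3421568, plus strand, 2 exons) had 0.882, 1.27 and 1.60 CPM at 12 h, 33.7, 18.5 and 26.7 CPM at 36 h and 1.02, 2.82 and 2.18 CPM at 60 h. All 3 libraries of 36 h lay above all libraries of the other 2 ages, and the mean at 36 h was the highest of the 67 groups. Its log2 fold change was 4.39 ± 0.41 (SE, adjusted p = 3.15e-07) in the first step and -3.71 ± 0.38 (adjusted p = 1.15e-06) in the second. Aerial mycelium at 156 h, at 11.1 CPM, came next among the groups, against 0.170 CPM in attached mycelium of that age.

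Other genes rose by 36 h and were still high at 60 h. CopciAB_435608.T0 (scaffold 1, 4138586 to 4139419, minus strand) had 49.7, 42.5 and 39.1 CPM at 12 h, 415, 620 and 446 CPM at 36 h and 227, 283 and 552 CPM at 60 h. Its first step was 3.49 ± 0.35 on the log2 scale (SE, adjusted p = 3.63e-06), and its second, -0.48, was not called (adjusted p = 0.315). CopciAB_1001271.T0 (scaffold 6, 155830 to 156515, plus strand, a coding length of 243 bp) had 10.2, 11.4 and 11.1 CPM at 12 h and 94.3, 96.7 and 98.7 CPM at 36 h. In both genes the libraries of 12 h lay apart from all those of 36 and 60 h. The mean of CopciAB_1001271.T0 was 99.0 CPM at 60 h and 628 CPM at 132 h. CopciAB_15443.T0 (scaffold 11, 423864 to 426945, plus strand, 7 exons), an abundant transcript, had 603, 367 and 596 CPM at 12 h and 1917, 1700 and 1981 CPM at 36 h, where its mean was the highest of the 67 groups. It rose by 1.84 ± 0.19 on the log2 scale (SE, adjusted p = 6.78e-07) and held 1486, 1491 and 1679 CPM at 60 h. CopciAB_454503.T0 had means of 21.2, 160 and 86.1 CPM at the 3 ages, and its 36 h libraries did not overlap with those of either other age.

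Over the 557 genes that were higher at 36 h, the median level relative to the 12 h mean was 1.17 ± 0.08 (log2, SD over 3 libraries) at 36 h. It was 0.92 ± 0.10 at 60 h and 0.94 ± 0.08 at 132 h. The 12 and 36 h libraries chose these genes, so their value at 36 h is a description. The later ages played no part in the choice apart from sharing the 12 h reference.

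The genes that were lower at 36 h included abundant transcripts. CopciAB_491298.T0 (scaffold 12, 2132873 to 2134335, plus strand, 7 exons) had 1157, 2299 and 1333 CPM at 12 h, 86.0, 107 and 42.8 CPM at 36 h and 527, 344 and 544 CPM at 60 h. Its log2 fold changes were -4.34 ± 0.45 (SE, adjusted p = 9.59e-06) and 2.59 ± 0.42 (adjusted p = 0.000513). CopciAB_415885.T0 (scaffold 4, 1256059 to 1258241, minus strand, 15 exons) had 2130, 3170 and 2480 CPM at 12 h, 284, 343 and 69.4 CPM at 36 h and 1832, 1549 and 2158 CPM at 60 h. Neither gene had a 36 h library that reached any library of 12 or 60 h. By 132 h the mean of CopciAB_415885.T0 was 5591 CPM. At 156 h it was 71.8 CPM in aerial and 4976 CPM for attached mycelium, with a log2 fold change of -6.13 between them (adjusted p = 3.80e-06).

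Further genes had their lowest level of the young ages at 36 h. CopciAB_439213.T0 (scaffold 3, 3326807 to 3327603, minus strand), a gene of 1 exon, had 328, 324 and 235 CPM at 12 h, 15.6, 31.7 and 17.6 CPM at 36 h and 307, 133 and 207 CPM at 60 h. CopciAB_431646.T0 (scaffold 7, 1812935 to 1814233, minus strand) had 1875, 2899 and 1860 CPM at 12 h, 297, 291 and 232 CPM at 36 h and 2033, 1136 and 2007 CPM at 60 h. CopciAB_443979.T0 (scaffold 11, 1589026 to 1589532, minus strand, a coding length of 213 bp) had 1813, 2836 and 1917 CPM, then 241, 329 and 194 CPM, then 2015, 1250 and 1894 CPM. In all 3 genes the 36 h libraries lay below every library of 12 and 60 h. CopciAB_178286.T0 and CopciAB_178424.T0, both on scaffold 12 with 3 exons and the same coding length of 1347 bp, had means of 316, 26.3 and 281 CPM and of 85.5, 10.7 and 90.3 CPM at the 3 ages. Both rose far above these levels later, to 3236 and 1478 CPM at 132 h. The counting could split reads between 2 such similar models, so the values of each are uncertain.

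Some genes were low until 36 h and high at 60 h. CopciAB_1000451.T0 (scaffold 2, 2699816 to 2700988, plus strand, 2 exons) had 23.2, 35.7 and 40.7 CPM at 12 h, 31.8, 26.9 and 20.7 CPM at 36 h and 159, 415 and 202 CPM at 60 h. It rose by 3.29 ± 0.52 on the log2 scale in the second step (SE, adjusted p = 0.000445). CopciAB_480395.T0 (scaffold 11, 854681 to 855614, plus strand, 2 exons) had 4.33, 9.54 and 8.31 CPM, then 9.56, 6.81 and 6.16 CPM, then 56.1, 91.1 and 59.5 CPM, a rise of 3.20 ± 0.42 (SE, adjusted p = 6.74e-05). For both genes the libraries of 12 and 36 h overlapped and those of 60 h lay above all of them. The second gene had come down to 17.5 CPM on average at 84 h.

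The median level of the 423 genes lower at 60 h is given relative to the 12 h mean (log2, SD over 3 libraries). It was 0.37 ± 0.09 at 36 h, -0.87 ± 0.06 at 60 h and -0.28 ± 0.06 at 132 h. These genes were chosen to be high at 36 h and low at 60 h, so the values at these ages are a description. The part of that choice in the later return was not tested. CopciAB_468111.T0 (scaffold 10, 1972689 to 1973403, plus strand, a coding length of 330 bp) had 3715, 3044 and 4765 CPM at 12 h, 4059, 3508 and 4083 CPM at 36 h and 590, 567 and 745 CPM at 60 h. It fell by 2.61 ± 0.15 on the log2 scale in the second step (SE, adjusted p = 1.77e-10), after a first step of 0.02 (adjusted p = 0.942). Its mean was 2355 CPM at 84 h and, at 156 h, 11592 CPM in aerial mycelium, the highest of the 67 groups. CopciAB_444086.T0 (scaffold 6, 2654623 to 2655615, plus strand) had 139, 145 and 224 CPM, then 426, 402 and 455 CPM, then 22.2, 21.4 and 39.4 CPM. CopciAB_430758.T0 (scaffold 14, 91057 to 92079, plus strand) had 80.5, 61.4 and 87.2 CPM, then 35.3, 31.0 and 30.5 CPM, then 1.79, 2.00 and 1.36 CPM. It was lower in each step, and no libraries of different ages overlapped.

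Whether the 2 steps of a gene differed was tested as the contrast of the second step minus the first. This contrast counts the 36 h libraries in both steps, which share them. It was positive for 1313 genes (12%) and negative for 872 genes (7.98%). A positive value says only that the second step lay above the first and a negative value that it lay below, which includes genes flat in 1 step, such as CopciAB_1000451.T0, and genes that fell in both, such as CopciAB_430758.T0. The genes named next were low or high at 36 h by their values. The largest contrasts by the rule for named genes were 7.08 for CopciAB_439213.T0, 7.01 for CopciAB_178286.T0, 6.93 for CopciAB_491298.T0, 6.84 for CopciAB_358430.T0 and 6.47 for CopciAB_415885.T0. In the other direction they were -8.10 for CopciAB_546727.T0, -6.35 for CopciAB_498082.T0, -6.04 for CopciAB_371700.T0, -5.97 for CopciAB_478454.T0 and -5.32 for CopciAB_410143.T0. CopciAB_371700.T0 (scaffold 2, 3727685 to 3730217, plus strand, 11 exons) had 13.7, 12.3 and 21.9 CPM at 12 h, 77.0, 62.6 and 108 CPM at 36 h and 5.46, 7.74 and 6.27 CPM at 60 h. CopciAB_358430.T0 (scaffold 5, 891846 to 894490, minus strand, 13 exons) had 64.8, 78.9 and 55.8 CPM at 12 h, 9.81, 9.70 and 2.90 CPM at 36 h and 92.7, 88.8 and 106 CPM at 60 h. The rule required that the 36 h libraries of such genes overlap with neither other age.

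**Figure D2:**
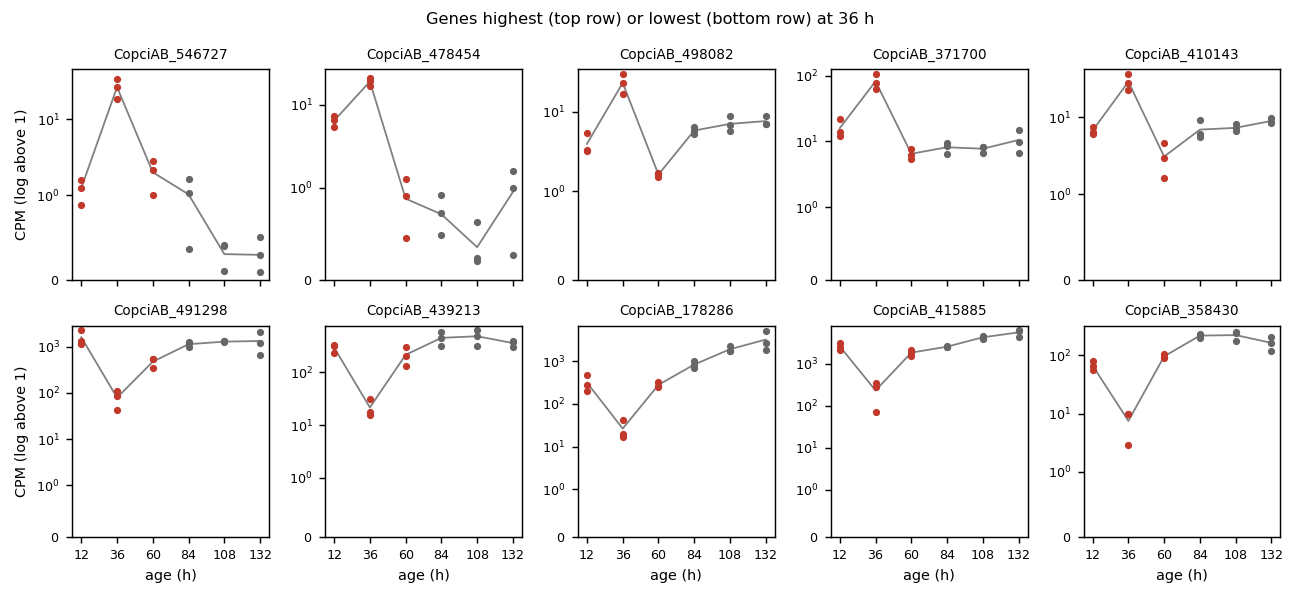
CPM of each library (points, log scale above 1 CPM and linear below) and group means (line) by age in hours for the 5 genes with 36 h as the high point (top row) and the 5 with 36 h as the low point (bottom row). Red points are the ages 12, 36 and 60 h, and grey points are 84, 108 and 132 h. CopciAB_546727.T0 stood at a mean of 26.3 CPM at 36 h, and CopciAB_491298.T0 at 78.6 CPM between 1596 and 472 CPM.

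To describe the called genes as groups, sets were taken from comparisons that use no library of 12, 36 or 60 h. Each set holds the 100 genes of largest fold in 1 direction among the genes called in that comparison with enough CPM, or all of them where there were fewer, which left 84, 59 and 53 genes in 3 sets that are not described here. Counts of called members are to be read against the shares of all tested genes, 5.1% higher and 7.81% lower in the first step and 5.75% higher and 3.87% lower in the second. Among these sets, the aerial set had the most genes called in the second step. It holds the genes higher in aerial than in attached mycelium at 156 h in the dark. Its median CPM was 6.21, 6.03 and 7.22 in the libraries of 12 h, 9.0, 7.46 and 10.4 at 36 h and 2.05, 2.41 and 2.59 at 60 h. The 3 libraries of 60 h lay below all those of 36 and 12 h, and those of 36 h lay above those of 12 h. The median was 4.58 to 5.02 CPM at 84 h, above all libraries of 60 h and still below all those of 12 and 36 h. In RNA from bulk mycelium, fewer aerial hyphae and less RNA of these genes per hypha cannot be told apart, and no source used here gives the share of aerial hyphae in a sample.

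Of the 100 genes of the aerial set, 96 were tested, and the other 4 stayed at or below 0.779 CPM in all 9 libraries. In the second step 68 were lower (70.8%, against 3.87% of all tested genes) and 0 were higher, with a median log2 fold change of -1.68 against 0.03 for all tested genes. Counted by libraries alone, 77 of the 96 had all libraries of 60 h below all of 36 h, against 18.3% of the tested genes. In the first step 31 were higher (32.3%, against 5.1%) and 4 were lower (4.17%, against 7.81%), with a median of 0.62 against -0.04. All 36 h libraries lay above all 12 h libraries for 44 of the 96, against 22.7% of the tested genes. Without library 2 of 12 h the first step counted 22 higher and 8 lower, and the same counts came without library 3 of 36 h. Between 12 and 60 h, 3 were higher (3.12%, against 6.16%) and 42 were lower (43.8%, against 7.59%). The exceptions were few: 8 of the 96 had a positive second step, led by CopciAB_447864.T0 at 1.24, which was not called (adjusted p = 0.130).

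**Figure D3:**
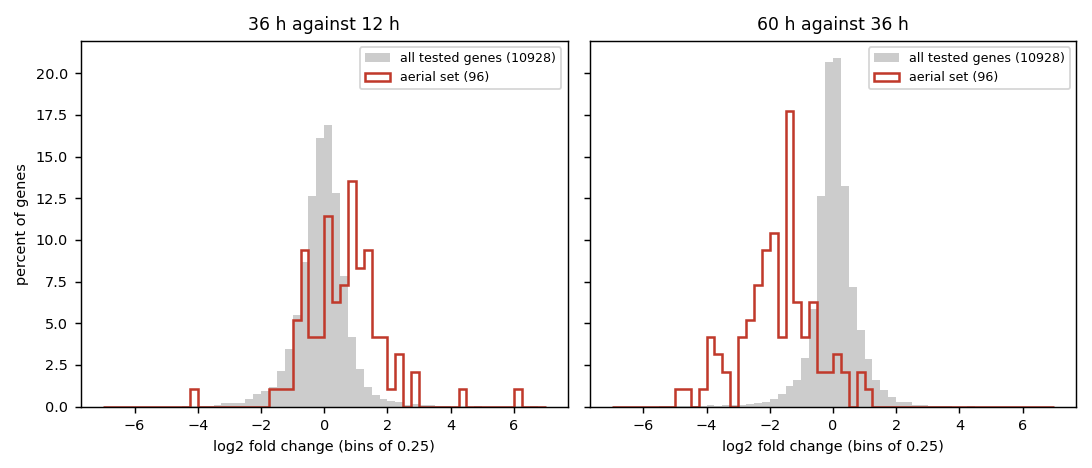
Percent of genes (vertical axis) by log2 fold change (horizontal axis, bins of 0.25) for the 96 tested genes of the aerial set (red outline) and all 10928 tested genes (grey) in each step. The medians of the aerial set were 0.62 in the left and -1.68 in the right panel.

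The attached set, the 100 genes that were highest in attached relative to aerial mycelium at 156 h, had 94 tested genes. Its median CPM was 4.25, 10.2 and 7.85 in the libraries of 12 h, 3.37, 3.08 and 2.65 at 36 h and 5.46, 3.92 and 7.27 at 60 h. The 36 h libraries were the lowest, and those of 12 and 60 h overlapped. In the first step 12 genes were higher (12.8%, against 5.1% of all tested genes) and 33 lower (35.1%, against 7.81%), with a median log2 fold change of -1.13 against -0.04. In the second 30 were higher (31.9%, against 5.75%) and 1 was lower (1.06%, against 3.87%), with a median of 0.79 against 0.03. Between 12 and 60 h 22 of the 94 were higher, against 6.16% of all tested genes, and 15 lower, against 7.59%. The median reached 13.7 to 33.5 CPM at 132 h.

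The same comparison of aerial with attached mycelium was then read for the genes called in each step. Among the 10769 genes tested in both fits, 8.45% were higher and 11% were lower in aerial mycelium. Of the 417 genes lower at 60 h that were tested there, 241 were higher in aerial mycelium and 25 lower, with a median log2 fold change of 1.42. Of 620 genes higher at 60 h, 32 were higher and 223 lower in aerial mycelium. Of the genes called in the first step, the 544 that rose and were tested there had 100 higher and 135 lower, and the 833 that fell had 74 higher and 222 lower. Among the 12 genes named for the largest falls at 60 h, 10 were higher in aerial mycelium, and among the 12 named for the largest rises, 10 were lower there.

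Other conditions were read in the same way. Light for 1 h in attached mycelium raised 7.09% and lowered 10.2% of the 10769 genes tested in both fits. This comparison uses the attached libraries of 156 h that the comparison of aerial with attached mycelium also uses. Of the 620 genes higher at 60 h, 20 were higher and 261 lower after that light, with a median log2 fold change of -0.95. The genes lower at 60 h also had more lower than higher, 98 against 42 of 417. Of the 833 genes lower at 36 h, 33 were higher and 276 lower, and of the 544 higher at 36 h, 89 were higher and 77 lower. The lists of the 2 steps rest on the same 36 h libraries and have genes in common, so they are not separate readings. After 24 against 2 h of starvation on water agar, 7.42% of 10664 genes were higher and 3.19% lower. Of 414 genes lower at 60 h, 138 were higher and 19 lower there, while of 618 genes higher at 60 h 72 were higher and 43 lower. The labels name 60 h dark mycelium as the control of these colonies, so starvation time and colony age cannot be told apart. In the dark course, the median log2 level of the genes lower at 60 h moved from -0.87 at 60 h to -0.43 at 84 h, relative to 12 h. These genes were chosen to be low at 60 h, and the part of that choice in the move was not tested. Heat shock at 47 °C changed more genes, with 25.3% of 10754 higher and 29.6% lower, and of 621 genes higher at 60 h, 70 were higher and 371 lower. The genes lower at 60 h leaned the same way, with 83 higher and 177 lower of 407, as did those lower at 36 h, with 175 higher and 398 lower of 832.

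For sets built from stress responses, the shares of all tested genes already lean lower in the first step (7.81% against 5.1% higher) and higher in the second (5.75% against 3.87% lower). In the copper-lowered set, the 100 genes most reduced by copper, 98 were tested, of which 3 were higher (3.06%) and 28 lower (28.6%) in the first step and 29 higher (29.6%) and 0 lower in the second. In the heat-lowered set all 100 were tested, with 9 higher and 32 lower and then 35 higher and 8 lower. Its median CPM was 17.2 to 20.3 at 12 h, 11.2 to 12.6 at 36 h and 16.2 to 18.1 at 60 h, so the libraries of 36 h stood apart. The calcium-lowered set had 10 higher (10.3%) and 39 lower (40.2%) of 97 and then 26 higher (26.8%) and 9 lower (9.28%). The voriconazole-lowered set had 9 higher (9.28%) and 33 lower (34.0%) of 97 in the first step and 10 higher (10.3%) and 16 lower (16.5%) in the second. These sets overlap in part, so they are not separate pieces of evidence. They are only some of the stress sets built, and not every stress leaned this way. Sorbitol, an osmotic stress, raised 10.5% and lowered 7.17% of the 10642 genes tested in both fits. Of 822 genes lower at 36 h, 162 were higher and 56 lower under sorbitol. Of 620 genes higher at 60 h, 96 were higher and 28 lower there.

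In the early starvation set, the 100 genes higher at 2 than at 24 h of starvation, all 100 were tested. The colonies starved for 24 h were also older than those starved for 2 h. In the first step 26 were higher, against 5.1% of all tested genes, and 12 lower, against 7.81%, and in the second 17 were higher, against 5.75%, and 8 lower, against 3.87%. Between 12 and 60 h 34 were higher, against 6.16%, and 12 lower, against 7.59%. Of the 97 tested genes highest in 12 h germlings relative to resting basidiospores, 8 were higher (8.25%) and 15 lower (15.5%) in the first step and 11 higher (11.3%) and 2 lower (2.06%) in the second. Of the genes highest in resting basidiospores, 67 were tested, with 1 higher (1.49%) and 7 lower (10.4%) and then 3 higher (4.48%) and 2 lower (2.99%), counts too small to read as a result about the set.

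**Figure D4:**
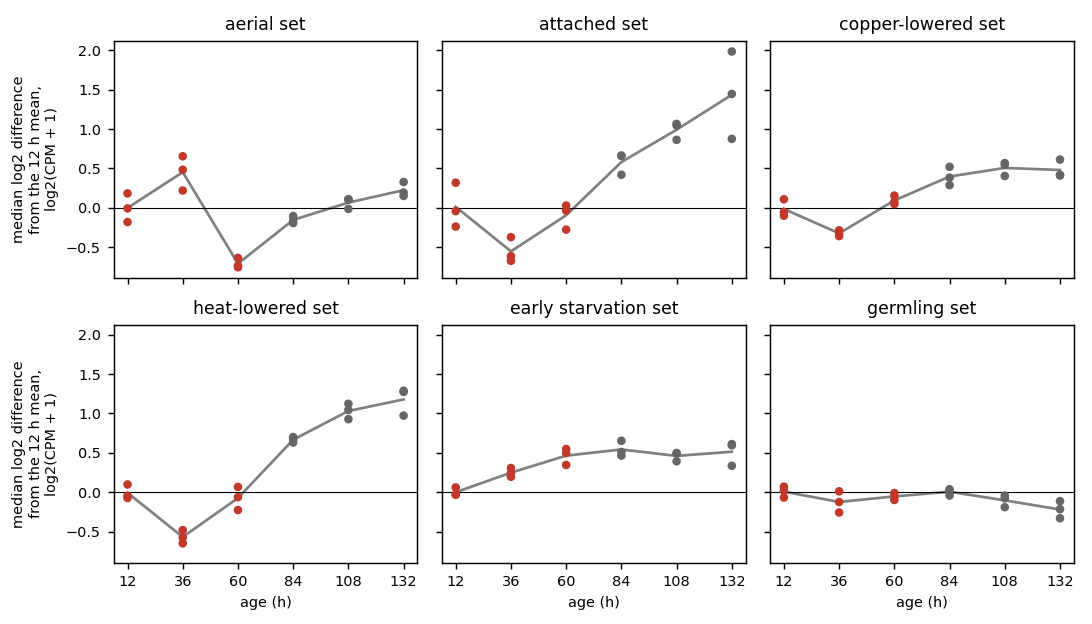
Median difference of each set from the 12 h mean, on the log2(CPM + 1) scale (vertical axis), by age in hours. Points are libraries, red for 12, 36 and 60 h and grey for later ages, and lines join group means. The aerial set has its lowest point at 60 h and the attached, copper-lowered and heat-lowered sets theirs at 36 h. The heat-lowered set was chosen partly on its level in the 132 h libraries.

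Neighbouring genes were examined for steps in common. On scaffold 8, from 1611105 to 1629486, 6 of 7 consecutive genes were lower at 60 than at 36 h, where 3.87% of the tested genes were. This stretch was looked at after its values were seen. CopciAB_501042.T0 had 556, 394 and 640 CPM at 12 h, 762, 706 and 869 CPM at 36 h and 60.4, 51.4 and 58.0 CPM at 60 h. It fell by 3.78 ± 0.18 on the log2 scale (SE, adjusted p = 1.96e-11). CopciAB_376268.T0 had 502, 464 and 560 CPM, then 474, 391 and 436 CPM, then 40.0, 33.9 and 44.1 CPM. CopciAB_376281.T0 had 348, 249 and 496 CPM, then 569, 478 and 611 CPM, then 39.6, 36.5 and 46.5 CPM. In these genes the libraries of 60 h stood alone, far below those of 12 and 36 h. At 84 h the means of the same genes, in the order given, were 439, 264 and 289 CPM.

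In the same stretch, CopciAB_441320.T0 went from a mean of 235 CPM at 36 h to 22.5 CPM at 60 h, and CopciAB_559307.T0 from 105 to 23.0 CPM. The latter overlaps another counted gene, so its counts are uncertain. It was also called lower in the first step, with a log2 fold change of -1.05. CopciAB_441323.T0 fell by 1.48 on the log2 scale. CopciAB_1001817.T0, a short gene between them at 3.26 to 3.64 CPM in the 36 and 60 h libraries, was not called. The flanking CopciAB_441325.T0 was not called in either step. Of the 6 genes, 3 belong to the aerial set. At 156 h the mean of CopciAB_376281.T0 was 3199 ± 727 CPM (SD, n = 3) for aerial hyphae and 333 ± 133 CPM for attached ones, and its highest group mean, 5590 CPM, was in primordia.

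**Figure D5:**
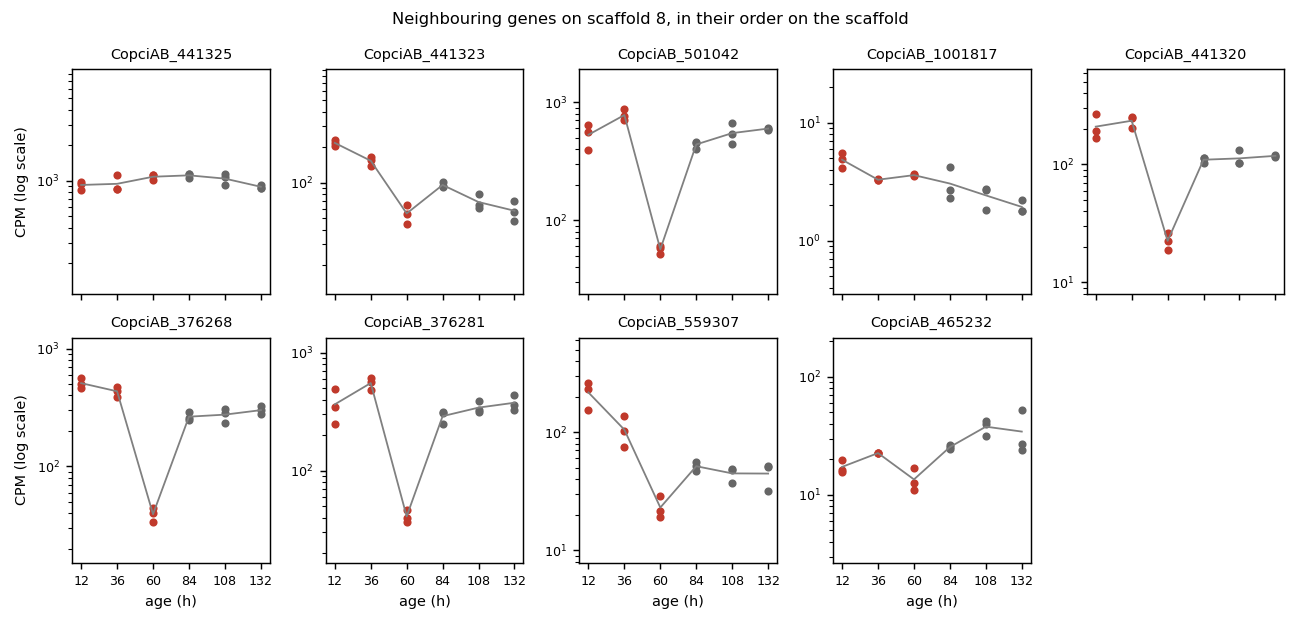
CPM of each library (points, log scale, each panel spanning the same range of folds) by age in hours for 9 tested neighbouring genes on scaffold 8, in their order on the scaffold. Lines join group means. Red points are 12, 36 and 60 h. The 6 genes CopciAB_441323.T0, CopciAB_501042.T0, CopciAB_441320.T0, CopciAB_376268.T0, CopciAB_376281.T0 and CopciAB_559307.T0 are lower at 60 than at 36 h.

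A second neighbourhood went the other way. On scaffold 7, from 585557 to 594129, 5 consecutive genes were higher at 60 than at 36 h, with log2 fold changes of 1.47 to 2.63. The most abundant, CopciAB_442023.T0, had 87.6, 175 and 36.4 CPM at 36 h and 397, 367 and 590 CPM at 60 h. The other 4 had means of 15.0 CPM or less at 60 h, down to 1.17 CPM for CopciAB_465774.T0 and 1.83 CPM for CopciAB_545431.T0. The 36 and 60 h libraries of CopciAB_442025.T0 overlapped. Another run of 5 tested genes higher at 60 h lay on scaffold 3, from 2404024 to 2414720. Of its genes, 3 overlap others or hold shared reads. The longest run of higher tested genes in the first step was 4, on scaffold 8 from 84928 to 94016. No run of lower genes in that step passed 3. In that step 5.1% of the tested genes were higher and 7.81% lower.

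The 10 most abundant genes of each age came to 15 distinct genes, of which 6 were in all 3 lists. CopciAB_454076.T0 led at each age with means of 17651, 19191 and 20359 CPM, and it was not called in either step. CopciAB_392677.T0 rose from 4750, 3029 and 3529 CPM at 12 h to 9502, 9778 and 10492 CPM at 36 h and had 9471, 10271 and 10140 CPM at 60 h. CopciAB_390376.T0 stood at 5121, 4578 and 5249 CPM and at 4986, 5351 and 4742 CPM before it rose to 15082, 12004 and 10885 CPM at 60 h, by 1.33 ± 0.13 on the log2 scale (SE, adjusted p = 3.90e-07). These genes hold reads shared with other models in at least 50% of the libraries, so their levels are uncertain. CopciAB_404033.T0, which does not, had means of 6219, 3498 and 2022 CPM. Neither of its steps reached a fold of 2, and its libraries of different ages did not overlap.

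Gene structure is given as a description. The median coding length was 1197 bp over all tested genes, 861 bp over the genes lower at 36 h and 1233 bp over those higher at 36 h. Among the genes higher at 60 h it was 976.5 bp, and among those lower 1071 bp. Coding lengths under 450 bp made up 12.7% of the tested genes, 19.9% of those lower and 8.98% of those higher at 36 h, and 15.3% of those higher and 10.9% of those lower at 60 h. The median number of exons was 5 over the tested genes and in all these lists except the genes lower at 36 h, where it was 4.

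Across the whole series, each young age was most like a neighbour in age. By the correlation of group means over 10928 genes, 12 h was closest to 36 h (r = 0.953), 36 h to 60 h (r = 0.965) and 60 h to 84 h (r = 0.973). Mycelium that was just meeting Trichoderma, a fungus grown beside it, came second for 36 h (r = 0.954). The least like 36 h were resting basidiospores (r = 0.483). The mean at 12 h was the highest of the 67 groups for 94 tested genes (0.86%), that at 36 h for 61 (0.56%) and that at 60 h for 47 (0.43%). It was at least 2-fold above the next group for 0, 1 and 0 of these genes. All 3 libraries of the age lay above all 198 others for 18, 11 and 2 of them.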

How the data were processed

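The values are the authors' expected counts, deposited as a single table without normalization beside a gene annotation. STAR 2.6.1a and featureCounts are the tools named, per the submitters' processing notes. No source used here states the strand setting or how reads with several hits were handled. Values that were not whole made up 19.9% of the nonzero entries, and all were rounded to whole numbers before fitting. Start and end positions are those of the deposited annotation, whose build is not named here. Genes that overlap another on the same (575) or the other strand (3487), or hold split reads, are uncertain. An error in an annotated 3′ end can change a gene's counts in this assay, and an end set too short can lose reads.

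The 18 libraries of the dark course, 12 to 132 h, were fitted together with edgeR 4.0.16 in R 4.3.3 (TMM scaling, filterByExpr at a minimum count of 10, robust quasi-likelihood test, Benjamini-Hochberg adjustment over all tested genes). DESeq2 1.42.0 was an alternative. Sets came from separate edgeR fits of the other groups, with a mean of 5 CPM or more in the higher group. The procedure was tested on simulated data. It recovered 36% and 32% of 2-fold changes in the first and second step, and 88% and 94% of 4-fold changes. A call needs an estimated fold of 2 or more, so this threshold itself limits the recovery of 2-fold changes. A gene that was not called may therefore have changed by about 2-fold. Replicates of 1 age differed by 12.8 to 33.3 in chi-square per degree of freedom, more than sampling noise, so none was treated as a repeat deposit of another. Whether they are separate cultures is a different matter that this does not show.

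Named genes had to be called, not overlap between the 2 ages, reach 10 CPM in the higher group and lie clear of other genes. The 8 largest folds and 4 largest CPM differences per direction and step were eligible, and 5 contrasts of the steps each way, of which the text gives a part. Genes in runs, in sets or among the most abundant were named apart from this rule. The members and lists were chosen with earlier results of these data known. Genes without names were given no role, and no sequence was used.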

Additional observations from a re-analysis of the deposited data

Results flagged for a closer look

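The difference between the 2 steps was itself past the test for 2185 genes, by edgeR's quasi-likelihood test of the second step minus the first. For 10 of them, named by the rule for the largest contrasts, the log2 values were 7.08 for CopciAB_439213.T0, 7.01 for CopciAB_178286.T0, 6.93 for CopciAB_491298.T0, 6.84 for CopciAB_358430.T0, 6.47 for CopciAB_415885.T0, -8.10 for CopciAB_546727.T0, -6.35 for CopciAB_498082.T0, -6.04 for CopciAB_371700.T0, -5.97 for CopciAB_478454.T0 and -5.32 for CopciAB_410143.T0. The naming rule took only genes whose 36 h libraries all lay above or all below those of both other ages. Each of the 10 therefore moved one way in the first step and the other way in the second, by that choice. Both steps rest on the same 3 libraries of 36 h, so a deviation shared by those libraries enters each step with opposite sign, and its part in the contrasts was not tested. Groups of 3 were not searched for single libraries that stand apart.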

How the results depend on the processing

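The counts of called genes for the 4 contrasts stayed within 1.5 times their value with RLE factors, no filter on low counts, a minimum count of 30, DESeq2, the 9 young libraries alone, unrounded counts and an adjusted p under 0.01. With genes holding shared reads left out, fewer genes were tested and the calls were 918 in the first step, 989 between 12 and 60 h and 1410 for the difference of the steps. Leaving out 1 library gave 1175 to 1519 calls in the first step, 862 to 1151 in the second, 1349 to 1640 between 12 and 60 h and 1677 to 2287 for the difference. No called gene took the opposite call in any of these settings in the steps or their difference. The labels do not say whether replicate numbers pair the samples, and no pairing was used. Same-numbered libraries of different ages correlated at -0.109 to 0.134 in their deviations, and differently numbered ones at -0.183 to 0.110. Not every library correlated best with its own number. Deviations from means of 3 libraries cannot decide whether the numbers pair. With a replicate block the calls were 1399, 1021, 1485 and 2164. Of 543 values of named genes in other settings 540 kept their call and 3 lost it, and of 549 with 1 library left out 539 kept it and 10 lost it, with 0 reversed. Of 1288 set medians, 128 moved by more than the spread between replicates. The labels name no sampling occasion or batch, so age and occasion cannot be told apart.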
